A study of Mus musculus with 6 samples.

Results

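The genes described here encode the surface molecules with which blood stem and progenitor cells are held in, leave and find the bone marrow. They are the chemokine receptor gene Cxcr4, the integrin subunit genes Itga4, Itga6, Itgb1, Itgal, Itgam and Itgb2, the selectin ligand gene Selplg and the hyaluronan receptor gene Cd44. The 9 genes were chosen by name for their function, with earlier results of these data known. The array carried 23 of its 45037 probe sets for them. Of those, 19 passed the filter on low signal, so each gene had at least 1 usable probe set among the 12320 genes measured.

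The arrays hold RNA of mouse (C57BL/6J) KSL cells, meaning bone marrow cells that are c-Kit+, Sca-1+ and Lin-, the gate that contains blood stem and early progenitor cells. There were 3 arrays of cells cultured with mD1R and 3 of cells cultured with PBS, and the submitters call the 3 of each group biological replicates. In both groups the purified cells grew for 7 days on HUVEC (endothelial cells of the human umbilical vein) in serum-free medium to which 5 types of mouse cytokines (m5GF) had been added, and KSL cells were then sorted out of the culture for RNA. The labels do not say what mD1R is; from what is known of the study, it is a soluble protein in which the part of Delta-like 1 that binds Notch receptors is joined to a peptide that directs it to endothelium.

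Homing proceeds in steps. Selectins on the vessel wall catch PSGL-1, the product of Selplg, so that the cell rolls, the chemokine Cxcl12 acts on Cxcr4, and integrins then hold the cell to the wall and to the marrow matrix. An integrin is a pair of an alpha and a beta chain. The Itga4 and Itga6 chains pair with Itgb1 to bind Vcam1 and laminins, while the Itgal and Itgam chains pair with Itgb2 to form the leukocyte integrins that bind Icam1. Cd44 binds hyaluronan and, in some glycosylated forms, selectins.

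With mD1R, Itgb1 was higher and Cxcr4 and Itgal were lower, and the other 6 genes did not pass the test. The log2 change was 1.02 ± 0.19 for Itgb1, -1.14 ± 0.25 for Cxcr4 and -1.63 ± 0.30 for Itgal (mD1R minus PBS, limma's SE, n = 3 per group). These are the values of each gene's brightest probe set, and the second bright probe set of Itgb1 and of Itgal moved the same way and passed. Thus 1 member was higher and 2 were lower of 9, where the shares over all 12320 genes were 8.49% higher and 7.09% lower, or 15.6% in either direction (limma, Benjamini-Hochberg adjusted p 0.05). With so few genes, chosen with earlier results of these data known, nothing particular to them was read from these counts. The groups did not overlap in 3 of the 9 genes, against 40.3% of all genes, and 5 of the 19 kept probe sets passed, against 12.6% of all kept probe sets. The members' median log2 change was 0.07, beside 0.09 over all genes. The count of 3 members turned on single arrays: it was 1 without PBS replicate 1, 0 without PBS replicate 2, PBS replicate 3 or mD1R replicate 2 (limma, with 3 at unadjusted p under 0.05 in each), and 4 without mD1R replicate 1.

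**Figure D1:**
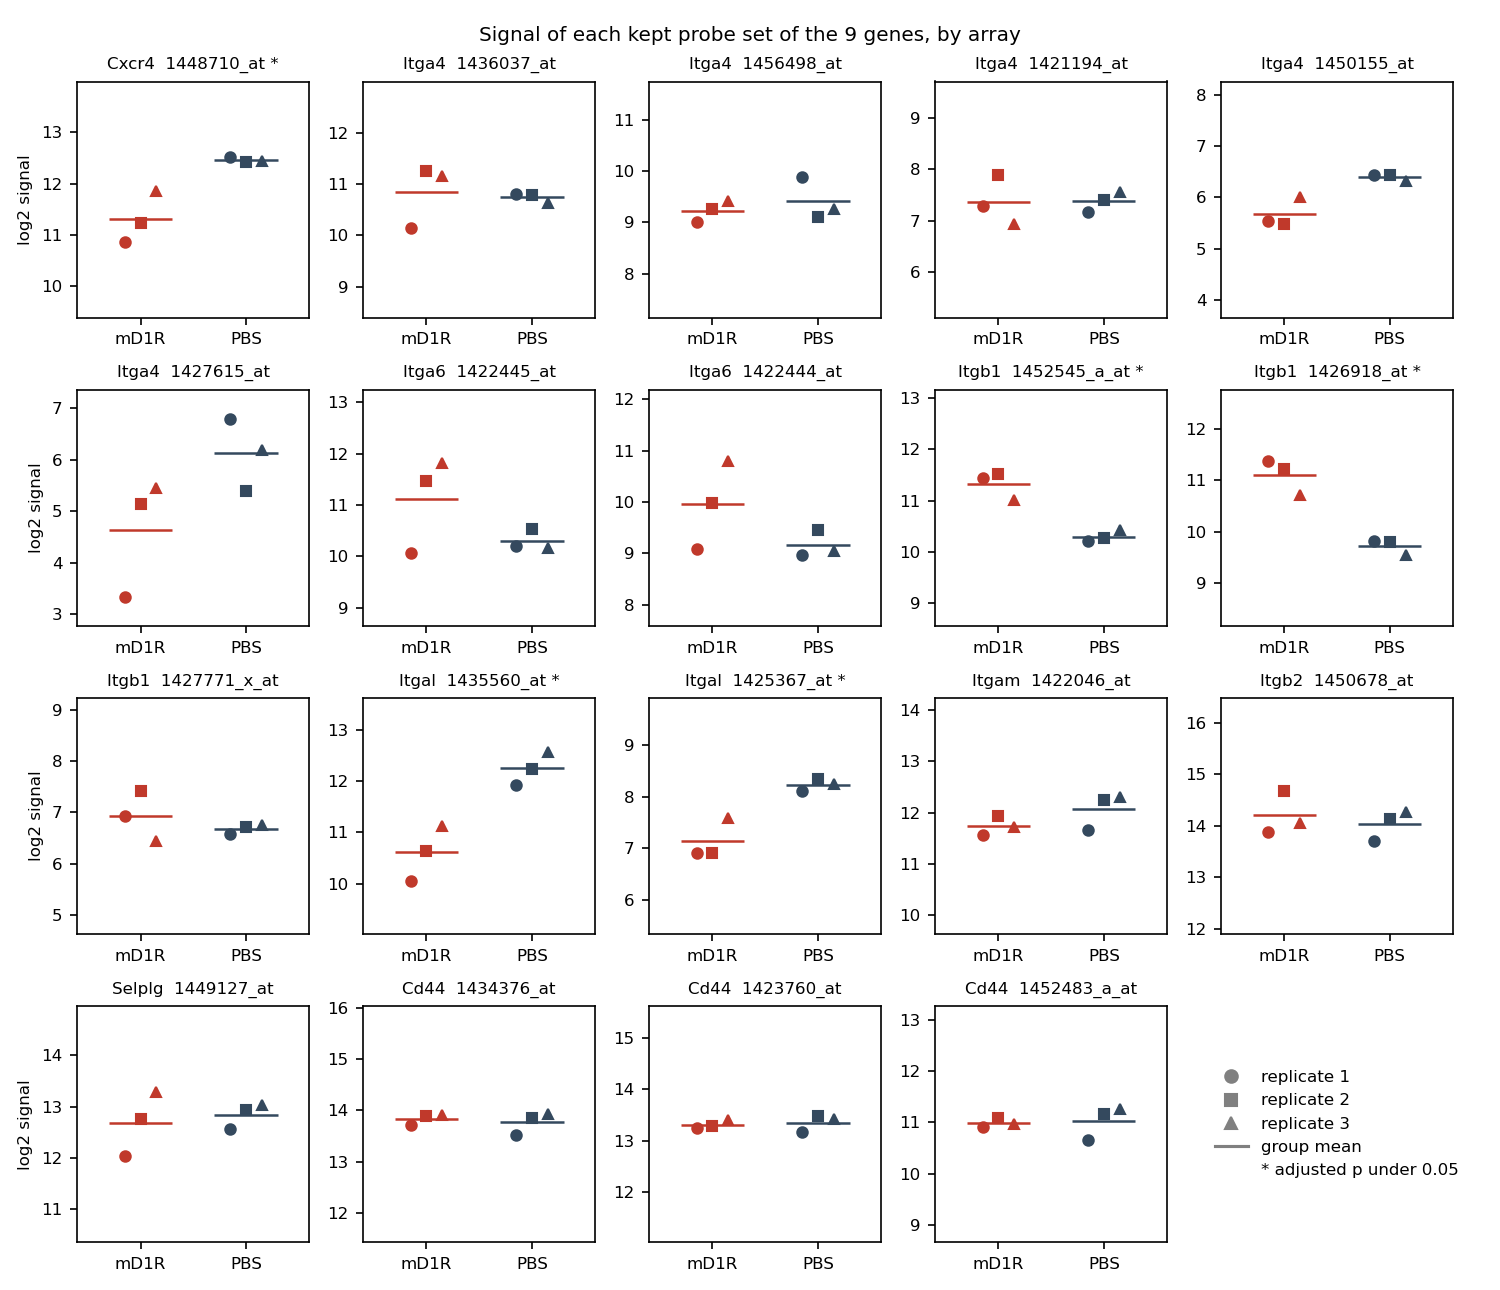
Log2 signal (y axis) of all 19 kept member probe sets on each array, with mD1R arrays left of PBS arrays, symbols for the replicates, a line at each group mean and an asterisk for adjusted p under 0.05. The mD1R arrays lie below every PBS array for Cxcr4 and both Itgal probe sets and above every PBS array for the pair of bright Itgb1 probe sets, and the groups overlap in the brightest probe set of the other 6 genes.

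The whole data set bears on how these values can be read. The mD1R arrays differed among themselves more than the PBS arrays did. On the first principal component, with 56.9% of the variance, mD1R replicates 1, 2 and 3 lay at 108.4, 93.6 and 12.6 and PBS replicates 1, 2 and 3 at -64.5, -70.7 and -79.4. A spike-in control split the arrays, as seen in the data and not in the labels, into a set of mD1R replicates 1 and 2 with PBS replicate 1 and a set of mD1R replicate 3 with PBS replicates 2 and 3. These are called spike-in batches 1 and 2 here, and every change within one rests on a single array of 1 group. Kit, one of the genes of the gate, had log2 signals of 11.37, 11.13 and 9.58 with mD1R and 9.97, 8.85 and 9.21 with PBS, and did not pass (adjusted p = 0.109, limma). Ptprc, the pan-leukocyte antigen gene, did not pass either (-0.34 ± 0.21). Cd34 and Flt3 are stem and progenitor markers that are not part of the gate. Cd34 was higher with mD1R (1.98 ± 0.43, limma adjusted p = 0.0263) and Flt3, a receptor gene of early progenitors, was lower. Flt3 had log2 signals of 5.45, 7.56 and 6.17 with mD1R and 8.72, 8.04 and 8.64 with PBS, a change of -2.08 ± 0.52 (0.0377). Thus Cd34 and Flt3 passed with all arrays included, while Kit and Ptprc did not. Without PBS replicate 2, PBS replicate 3 or mD1R replicate 2 the Cd34 call was lost (0.0936, 0.106 and 0.095). The Flt3 call was lost without any one PBS replicate (0.111, 0.0848 and 0.134) and without mD1R replicate 1 or 3 (0.072 and 0.0521). That call was also lost when the variance was not allowed to follow the signal (0.0585). Ly6a, which encodes Sca-1, had no probe set with a single symbol, so that marker was not checked here. The RNA came from bulk sorted cells, and fewer cells of a type and less RNA per cell cannot be told apart.

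Cxcr4 is the receptor through which Cxcl12 made in the marrow retains stem cells. It had 1 probe set, with log2 signals of 10.87, 11.23 and 11.86 with mD1R and 12.51, 12.42 and 12.44 with PBS. All 3 mD1R arrays lay below all 3 PBS arrays, and the mD1R arrays were spread over a much wider range (SD 0.50, against 0.04 with PBS). The fall of 1.14 ± 0.25 (SE) is a 2.20-fold difference, with a 95% interval of the log2 change of -1.72 to -0.55 (limma adjusted p = 0.0276). Within spike-in batches 1 and 2 the change was -1.46 and -0.57. The call depended on single arrays. It was lost without PBS replicates 1, 2 or 3 (changes of -1.11, -1.15 and -1.15, limma adjusted p = 0.0788, 0.0928 and 0.106), without mD1R replicate 2 (-1.09, 0.0947), and when the variance was not allowed to follow the signal (0.0563).

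The promoters of Cxcr4 and Itgb1, the genes of the called set for which RefSeq's promoter table (GRCm38.p6) has a window, are shown because these genes moved in opposite directions. The windows are the 160 bases before the annotated start, at chr1:128592300-128592459 on the minus strand for Cxcr4 and chr8:128685494-128685653 on the plus strand for Itgb1, written 5′ to 3′ along the gene's strand with matches to the motifs named below in capitals.
Cxcr4: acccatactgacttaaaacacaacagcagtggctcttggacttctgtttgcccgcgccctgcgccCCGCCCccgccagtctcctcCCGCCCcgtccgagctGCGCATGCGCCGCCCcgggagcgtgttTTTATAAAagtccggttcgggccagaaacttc
Itgb1: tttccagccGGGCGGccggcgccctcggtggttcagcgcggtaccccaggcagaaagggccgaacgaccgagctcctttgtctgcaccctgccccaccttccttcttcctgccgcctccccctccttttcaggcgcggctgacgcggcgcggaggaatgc
The search covered 250 bases before the start on both strands for TGGGAA (the core of the motif of RBPJ, the DNA-binding factor of Notch signalling), CCGCCC (the GC box), GCATGCGC (the NRF1 motif), TATAAA (the usual TATA box), TGTGGT (RUNX) and CGGAAG (ETS). Cxcr4 had 3 GC boxes, a palindromic NRF1 match read on both strands that runs into the GC box nearest the start, and overlapping TATA matches on the 2 strands. Itgb1 had 1 GC box and none of the other motifs. Neither window held the RBPJ letters, which says only that these letters are not in these 250 bases. Among the members with a window, the RBPJ letters occurred in Cd44, at 2 places. Over 32851 promoters of that length, 21.6% held the RBPJ letters, 32.7% a GC box, 2.26% the NRF1 letters, 12.4% the TATA letters, 14% the RUNX letters and 13.6% the ETS letters.

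Itgb1 is the beta chain that pairs with many alpha chains, among them those of Itga4 and Itga6. Its brightest probe set had log2 signals of 11.44, 11.51 and 11.01 with mD1R and 10.21, 10.27 and 10.42 with PBS. A second one had 11.38, 11.22 and 10.72 with mD1R and 9.81, 9.80 and 9.55 with PBS. Both put every mD1R array above every PBS array, and mD1R replicate 3 was the lowest of the mD1R arrays in each. The changes were 1.02 ± 0.19 (SE, 95% interval 0.58 to 1.47, 2.03-fold, limma adjusted p = 0.0182) and 1.38 ± 0.22 (0.88 to 1.88, 2.60-fold, 0.0126). In spike-in batches 1 and 2 the first probe set gave 1.27 and 0.67 and the second 1.49 and 1.04. The first lost its call without PBS replicates 1, 2 or 3 (limma adjusted p = 0.0553, 0.0768 and 0.0769) and without mD1R replicate 2 (0.0677), with changes from 0.93 to 1.18 over the settings that left out an array. The second lost its call without PBS replicate 2 or 3 or mD1R replicate 2 (0.0515, 0.0688 and 0.0527), with changes from 1.24 to 1.57. Another, dimmer probe set changed by 0.25 ± 0.33, which fell short of the threshold (limma adjusted p = 0.656), and 3 more lay below the filter.

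Itga6 encodes the laminin-binding alpha chain used as a stem and progenitor cell marker. Its brighter probe set had log2 signals of 10.07, 11.46 and 11.82 with mD1R and 10.20, 10.54 and 10.16 with PBS, and the other 9.08, 9.98 and 10.80 with mD1R and 8.97, 9.45 and 9.05 with PBS. In both, mD1R replicate 1 lay at the level of the PBS arrays or just below it, so the groups overlapped, while mD1R replicates 2 and 3 lay above all of them. The changes of 0.81 ± 0.42 (95% interval -0.14 to 1.77, adjusted p = 0.233) and 0.80 ± 0.40 (-0.13 to 1.72, 0.229) did not pass in limma. Without mD1R replicate 1 they were 1.34 and 1.23 and passed (0.0246 and 0.0499).

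Itga4 encodes the alpha chain that binds Vcam1 and fibronectin, and its probe sets did not agree. The brightest had log2 signals of 10.14, 11.25 and 11.16 with mD1R and 10.80, 10.79 and 10.63 with PBS, a change of 0.11 ± 0.30 (95% interval -0.58 to 0.79, limma adjusted p = 0.845). The mD1R arrays lay on both sides of the PBS arrays. The next in brightness changed by -0.19 ± 0.25 and -0.00 ± 0.31 and did not pass either (0.654 and 0.995). The pair of dimmest kept probe sets had lower means with mD1R. The brighter of these had 5.53, 5.48 and 6.01 with mD1R and 6.43, 6.43 and 6.31 with PBS, with no overlap between the groups, but its change of -0.72 ± 0.33 did not pass (0.188). The dimmest, at 3.33, 5.13 and 5.46 with mD1R and 6.80, 5.40 and 6.20 with PBS, changed by -1.49 ± 0.65 with overlapping groups (0.171), and its mean of 5.38 over the arrays lay just above the filter at 5.27. Low signals are the least precise on this scale. The direction of the 3 brighter Itga4 probe sets turned with the array left out.

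Itgal encodes the alpha chain of LFA-1, the lymphocyte and myeloid integrin for Icam1. Its brighter probe set had log2 signals of 10.06, 10.64 and 11.13 with mD1R and 11.92, 12.24 and 12.57 with PBS. The other had 6.90, 6.91 and 7.58 with mD1R and 8.11, 8.35 and 8.25 with PBS. Every mD1R array lay below every PBS array in both, with mD1R replicate 3 the nearest to the PBS arrays. The changes were -1.63 ± 0.30 (SE, 95% interval -2.31 to -0.95, 3.10-fold lower, limma adjusted p = 0.0166) and -1.11 ± 0.27 (-1.74 to -0.49, 2.16-fold lower, 0.0359). Within spike-in batches 1 and 2 they were -1.57 and -1.27 for the first and -1.21 and -0.73 for the second. The first lost its call without PBS replicate 2 or 3 or mD1R replicate 2 (limma adjusted p = 0.0616, 0.0797 and 0.0629), with changes from -1.89 to -1.35 when any array was left out. The second lost it with no filter (0.0512), without PBS replicates 1, 2 or 3 (0.0756, 0.137 and 0.133) and without mD1R replicates 1 or 2 (0.0797 and 0.109).

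Itgam, whose product pairs with Itgb2 to form the myeloid integrin Mac-1, had log2 signals of 11.56, 11.94 and 11.72 with mD1R and 11.66, 12.24 and 12.31 with PBS, a change of -0.33 ± 0.22 (95% interval -0.84 to 0.19, limma adjusted p = 0.367). Itgb2, the beta chain that Itgal and Itgam share, had 13.88, 14.68 and 14.05 with mD1R and 13.70, 14.14 and 14.27 with PBS, a change of 0.17 ± 0.26 (-0.43 to 0.76, 0.71). The groups overlapped for both genes. A fall as large as the 1.63 of Itgal lies outside both intervals.

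Selplg had log2 signals of 12.03, 12.76 and 13.28 with mD1R and 12.57, 12.93 and 13.03 with PBS. The mD1R arrays lay on both sides of the PBS arrays, and the change of -0.15 ± 0.31 (95% interval -0.87 to 0.56) did not pass (limma adjusted p = 0.787). Cd44 was measured by 3 bright probe sets that varied little in either group. The brightest had 13.71, 13.89 and 13.91 with mD1R and 13.52, 13.85 and 13.93 with PBS, a change of 0.07 ± 0.18 (-0.35 to 0.48, limma adjusted p = 0.839). The other bright ones changed by -0.04 ± 0.17 and -0.04 ± 0.20 (0.903 and 0.918). A further Cd44 probe set lay below the filter. For Cd44 a change of more than 0.48 in either direction lies outside the interval of the brightest probe set.

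**Figure D2:**
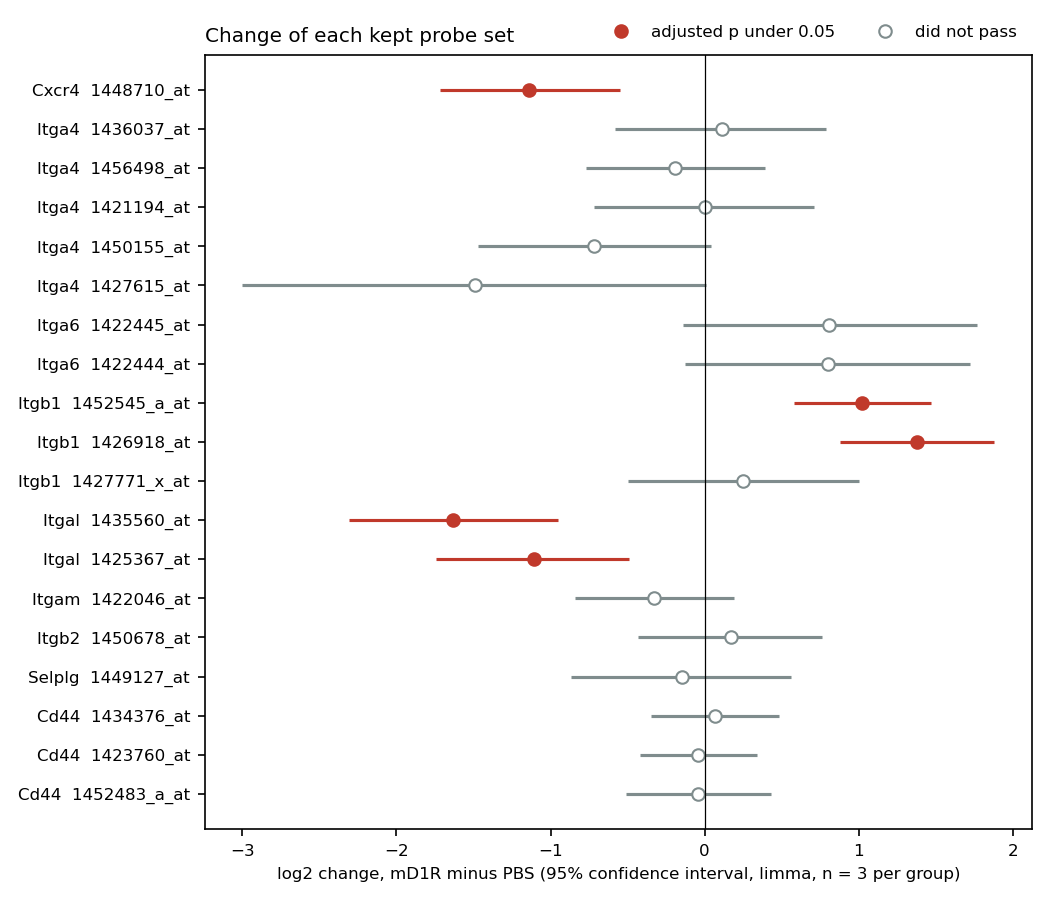
Log2 change (mD1R minus PBS) of every kept member probe set, with limma's 95% interval and the threshold outcome by colour. The Itgb1 pair of bright probe sets lies to the right of 0, those of Cxcr4 and Itgal to the left, and the other 14 intervals include 0.

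The members were also set against each other within arrays, in 4 comparisons chosen after the values were seen. The difference between Itgb1 and Itgb2, each taken relative to its own mean over the PBS arrays, was 1.29, 0.57 and 0.70 with mD1R and 0.24, -0.13 and -0.12 with PBS, a shift of 0.85. The same difference for Itgal and Itgb2, whose products pair with each other, was -2.03, -2.24 and -1.12 with mD1R and 0.01, -0.10 and 0.09 with PBS, a shift of -1.80. For Itgal against Itgam it shifted by -1.30, and for Cxcr4 against Cd44 by -1.20. The groups did not overlap in any of these 4, and each had an exact two-sided permutation p of 0.1, which is the smallest that 3 against 3 arrays can give and is 0.1 after Benjamini-Hochberg adjustment. Each pair set a gene that passed against one that did not, so the lack of overlap adds no separate evidence to the single-gene values.

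Signals of markers of other cell types are set beside the called members here. The summed linear signal of the 9 measured of 10 neutrophil markers was 23865, 96741 and 271597 with mD1R and 226020, 272128 and 288640 with PBS, so mD1R replicates 1 and 2 were low and replicate 3 lay among the PBS arrays. In the mD1R arrays the order of that sum, lowest in replicate 1 and highest in replicate 3, was also the order of the Cxcr4 and Itgal signals. This order is not particular to neutrophil markers. The mast cell, megakaryocyte and platelet, and endothelial sums given below had it too, and were higher in every mD1R array than in any PBS array. So did the natural killer cell and erythroid sums. The neutrophil sum is carried by the brightest genes, and S100a8 had log2 signals of 13.80, 15.44 and 16.03 with mD1R and 15.38, 15.80 and 15.90 with PBS, a change of -0.60. The list's median change was -3.70, and 7 of the 9 changed by -2.52 to -4.38. Of the 9, Mmp9 passed as lower (-4.38 ± 1.13, limma adjusted p = 0.0426), a call lost without mD1R replicate 1 or 2 (0.0649 and 0.136) and without any one PBS replicate (0.0965, 0.118 and 0.137). The call was also lost when the variance was not allowed to follow the signal (0.0704) and with a robust variance estimate (0.0639). Mmp9 had 7.25, 9.30 and 12.63 with mD1R and 13.62, 14.28 and 14.43 with PBS. Mpo, named after its values were seen, had 7.39, 9.77 and 13.93 with mD1R and 14.68, 14.35 and 14.36 with PBS and did not pass (0.0876). In mD1R replicate 3, Mmp9, Mpo and Prtn3 lay below every PBS array, as Cxcr4 and both Itgal probe sets did, and the other 6 markers did not. The part of these cells in the Cxcr4 and Itgal values was not tested.

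The sums of 9 monocyte and macrophage markers were 107234, 136193 and 66677 with mD1R and 28481, 35654 and 33915 with PBS. The sums of 8 measured of 9 mast cell markers were 34557, 40316 and 54786 with mD1R and 11889, 11531 and 9811 with PBS. Both were higher in every mD1R array. Of these genes, 6 monocyte and macrophage and 6 mast cell genes passed as higher, where the share over all genes was 8.49%. The brightest mast cell marker with mD1R was Cpa3, at log2 signals of 14.33, 14.40 and 14.61, against 12.16, 11.69 and 11.17 with PBS. Hdc, also on that list, went the other way. It had 10.15, 10.58 and 12.54 with mD1R and 12.15, 12.59 and 12.54 with PBS, and its change of -1.34 ± 0.55 did not pass (limma adjusted p = 0.15). Markers of megakaryocytes and platelets summed to 37207, 52532 and 56156 with mD1R and 8419, 20763 and 15302 with PBS. T cell markers summed to 235, 146 and 235 with mD1R and 981, 839 and 822 with PBS, and natural killer cell markers to 240, 417 and 437 with mD1R and 2075, 1161 and 1254 with PBS. B cell markers summed to 1975, 959 and 1135 with mD1R and 3229, 1838 and 1775 with PBS, and erythroid markers to 368, 378 and 671 with mD1R and 2549, 608 and 679 with PBS. Endothelial markers summed to 1123, 1418 and 2493 with mD1R and 538, 803 and 690 with PBS, with Cdh5, Tek and Emcn below the filter. Of the measured genes, 2 of 5 megakaryocyte and platelet genes and 1 of 3 endothelial genes passed as higher. Those that passed as lower were 3 of 5 T cell, 4 of 5 natural killer cell, 2 of 4 B cell and 1 of 3 erythroid genes. Over all genes the shares were 8.49% higher and 7.09% lower. The Lin- sort is meant to remove mature blood cells such as neutrophils, macrophages, lymphocytes and red cells. Sums of linear signals lie above 0 whether or not such cells are present, so the sums do not show their presence. The part of these cell types in the member values was not tested.

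**Figure D3:**
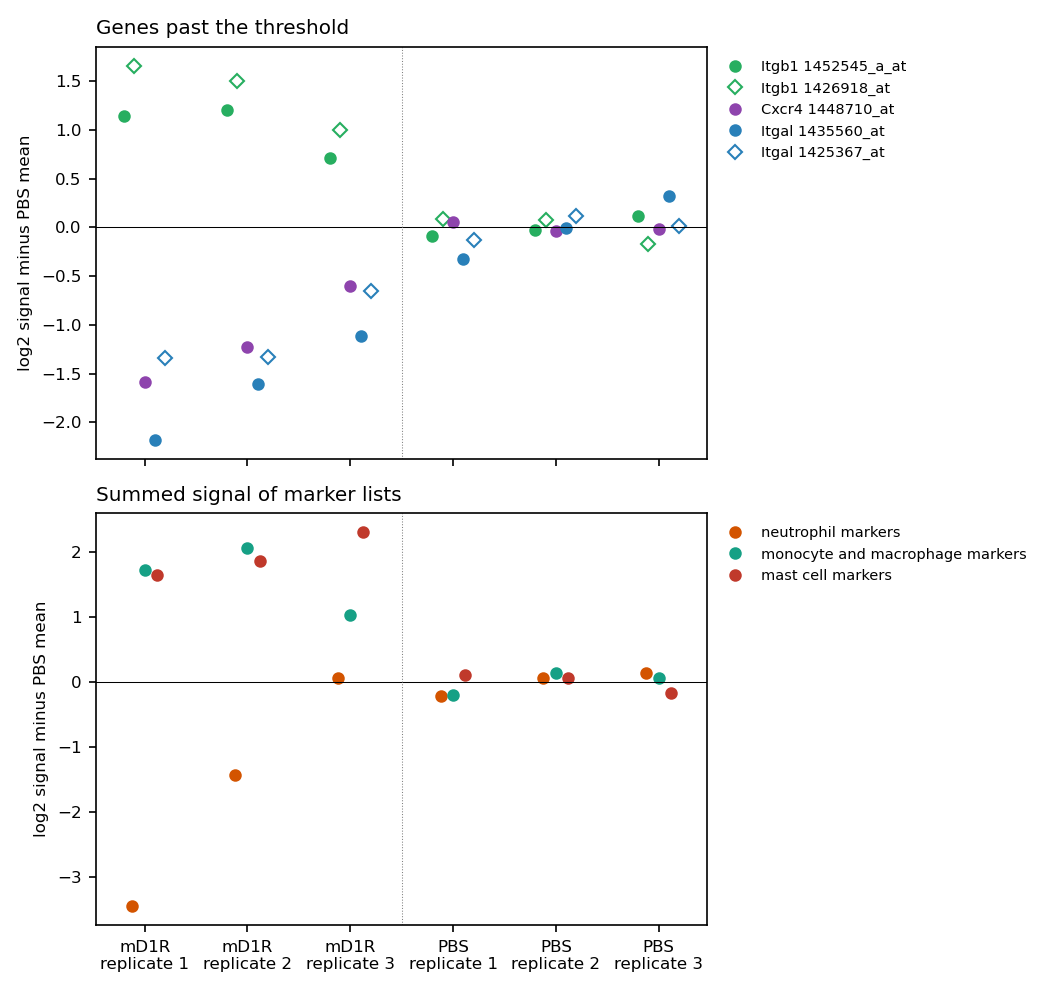
Log2 signal minus the PBS mean for the called member probe sets (top) and for the summed signals of 3 marker lists (bottom), by array, with mD1R arrays on the left. In mD1R replicate 3 the neutrophil sum, which the brightest genes carry, is at the PBS level, and the called member probe sets lie nearer to 0 than in the other mD1R arrays, on the same side.

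Around the members, 6 further lists of homing and adhesion genes were described, 112 measured genes in all, of which 14 were higher and 18 lower with mD1R. Over all 12320 genes the shares were 8.49% higher and 7.09% lower, or 15.6% in either direction, and the median log2 change was 0.09. The counts and medians of every list below stand beside these, and nothing particular to a list was read from them. The counts of the lists moved when an array was left out and are given with that. Among the 14 measured of 21 other integrin subunit genes, 2 were higher and 1 lower, and their median log2 change was 0.94. Itgb5, a beta chain that pairs with the alpha chain of Itgav, had a mean log2 signal of 10.49 ± 0.79 with mD1R and 8.92 ± 0.05 with PBS (SD, n = 3 each), with no overlap and mD1R replicate 3 the lowest of its group at 9.58, a change of 1.57 ± 0.36 (limma adjusted p = 0.0307). Its other probe sets changed by 1.28, 1.38 and 1.68, and the middle one of these did not pass (0.0574). Itgav itself had 12.19, 11.95 and 11.44 with mD1R and 10.76, 11.13 and 11.10 with PBS, a change of 0.86 ± 0.23 (0.0479), while its 3 dimmer probe sets changed by 0.16, 0.15 and -0.80 and did not pass. The Itgav call was lost with arrays centred on their medians (limma adjusted p = 0.0845) and with no filter (0.0621). It was also lost with no variance trend (0.0873) and with the spike-in block (0.0705). With an array left out, Itgav passed only without mD1R replicate 3 (0.00933). Itgb2l, a gene related to Itgb2, had 5.27, 7.52 and 11.28 with mD1R and 12.70, 13.25 and 13.50 with PBS, a change of -5.13 ± 1.26 (0.0367). Its mD1R arrays were in the order of the neutrophil sum, which several other marker sums shared. The platelet integrin genes Itga2b (1.67 ± 0.47) and Itgb3 (1.50), named after their values were seen and also on the megakaryocyte list, did not pass (0.0557 and 0.0608). Without PBS replicates 1, 2 or 3 or mD1R replicate 2, 0 of these 14 genes passed, without mD1R replicate 1, 1 did, and without mD1R replicate 3, 6 did.

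Of 30 measured genes of integrin activation and cytoskeletal linkage (36 listed), 4 were higher and 5 lower, with a median of 0.00. Vcl, which encodes vinculin of the adhesion plaque, had log2 signals of 10.54, 10.74 and 11.47 with mD1R and 12.76, 12.87 and 13.05 with PBS, a change of -1.98 ± 0.26 (limma adjusted p = 0.0109). The parvins, which couple integrin-linked kinase to actin, moved in opposite directions, Parvg by -1.37 ± 0.21 (0.0118) and Parvb by 1.48 ± 0.23 (0.0126). Cd151, a tetraspanin that associates with laminin-binding integrins, changed by 1.41 ± 0.25 (0.016), with 3 other probe sets from 1.35 to 1.71 and a dim one at -0.01. The kinase gene Src changed by 1.70 ± 0.34 (0.0206). Dropping PBS replicate 1, 2 or 3 gave 5, 3 or 0 calls in this list. Dropping mD1R replicate 1, 2 or 3 gave 5, 2 or 11.

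Of 12 measured counter-receptor and matrix genes (19 listed), 2 were higher and 0 lower, with a median of 0.75. Icam1, the counter-receptor of the Itgal and Itgam integrins, had log2 signals of 10.86, 11.59 and 10.46 with mD1R and 9.30, 9.49 and 9.19 with PBS, a change of 1.65 ± 0.29 (limma adjusted p = 0.0157), and Pecam1, an adhesion molecule of endothelium and leukocytes that is also on the endothelial list, changed by 1.41 ± 0.31 (0.0279). Vcam1, the ligand of the Itga4 integrin, named after its values were seen, had 8.02, 7.09 and 9.83 with mD1R and 12.17, 10.42 and 10.25 with PBS, a change of -2.63 ± 0.73 that did not pass (0.0534). Of 18 measured selectin and selectin ligand synthesis genes (21 listed), 1 was higher and 1 lower. Cd34, a sialomucin that carries selectin ligands, changed by 1.98 ± 0.43 (0.0263) and Cd24a, a ligand of P-selectin, by -1.90 ± 0.42 (0.0265), with 3 probe sets of Cd24a in the same direction. With any one PBS replicate left out the counter-receptor list gave 0 calls, and the selectin list gave 1, 0 and 0 without PBS replicates 1, 2 and 3. The selectin list gave 0 without mD1R replicate 2 and 4 without mD1R replicate 3, and the counter-receptor list gave 3 without mD1R replicate 3.

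Of 30 measured chemokine and lipid homing receptor and signalling genes (32 listed), 3 were higher and 10 lower, with a median of -0.40. Grk6, a kinase that turns off chemokine receptors such as Cxcr4, had log2 signals of 9.99, 10.33 and 10.94 with mD1R and 12.14, 12.72 and 12.76 with PBS, a change of -2.12 ± 0.28 (limma adjusted p = 0.0109), with 2 other probe sets at -2.16 and -1.71. Dpp4, the protease that cleaves Cxcl12, changed by -1.95 ± 0.38 (0.0197) and Rac2, a GTPase of cell migration, by -0.99 ± 0.20 (0.0217). Higher were the prostaglandin receptor gene Ptger2 (1.24 ± 0.21, 0.0149) and S1pr2, a receptor for sphingosine 1-phosphate (1.38 ± 0.24, 0.0151). Dropping PBS replicate 1, 2 or 3 gave 6, 2 or 0 calls, and dropping mD1R replicate 2 gave 3.

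Among 8 measured genes of CD44 linkage and hyaluronan turnover (10 listed), 2 were higher and 1 lower. Mmp14, a membrane metalloprotease that cleaves Cd44, had log2 signals of 12.93, 13.31 and 12.24 with mD1R and 9.78, 9.86 and 9.58 with PBS, a change of 3.09 ± 0.27 (limma adjusted p = 0.00778). Its other probe sets changed by 2.93 and 2.66. The hyaluronidase gene Hyal2 changed by 2.11 ± 0.48 (0.0299) and Hmmr, the gene of a hyaluronan receptor that also acts at the mitotic spindle, by -1.33 ± 0.26 (0.0198). Without PBS replicates 1, 2 and 3, 1, 2 and 0 genes passed, and without mD1R replicate 2, 1 did. All 20 genes named from these lists lost their call without PBS replicate 3, where no probe set passed in limma and 5853 had an unadjusted p under 0.05, and the sign of none turned in any setting.

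**Figure D4:**
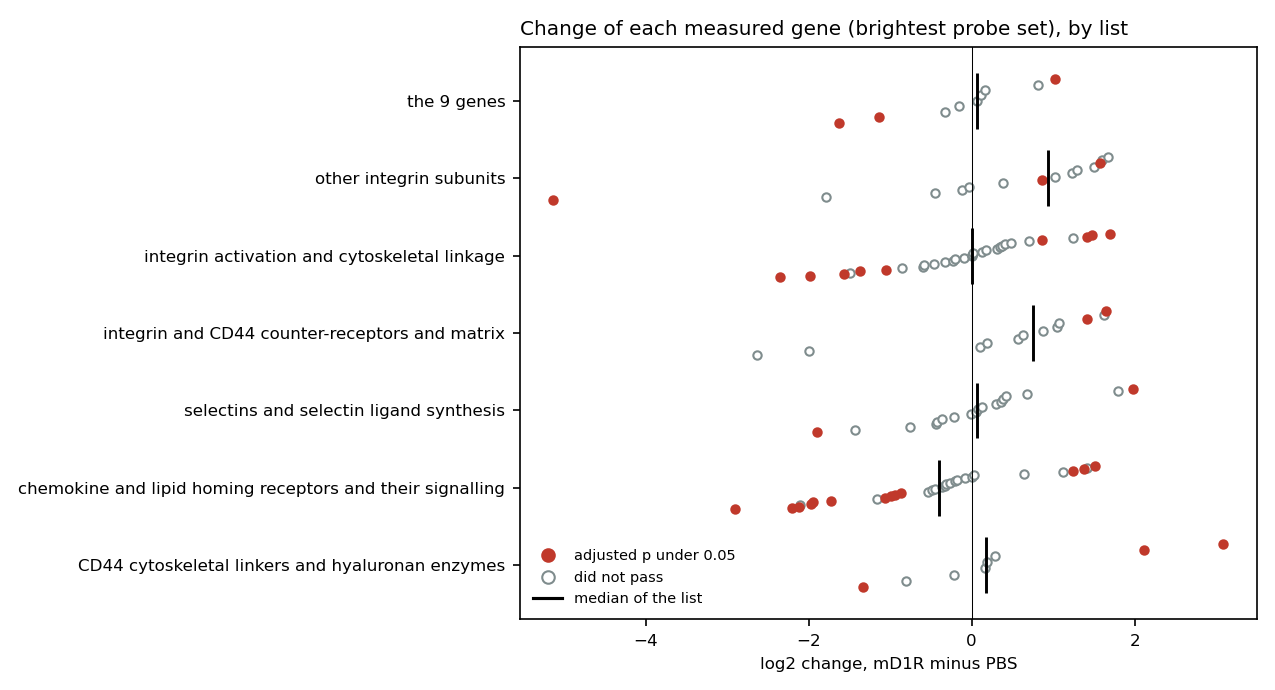
Log2 change (mD1R minus PBS, x axis) of the 9 genes and of every measured gene in the 6 further lists, filled where it passed adjusted p 0.05, with a line at each list's median. Genes that passed lie on both sides of 0 in every list shown but that of counter-receptors and matrix, where 2 passed as higher.

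By Pearson's r over the 6 arrays, given as a description because the arrays share the 2 groups, the genes most like Cxcr4 were Git2 (0.9993), Ncam1 (0.9988) and Tacc3 (0.9987). For Itgb1 they were Tnfsf9 (0.9990), Tef (0.9978) and Hs1bp3 (0.9973). For Itgal they were Add3 (0.9986), Rac2 (0.9986) and Ppm1m (0.9974). Rac2 is on the chemokine signalling list and passed as lower, as Itgal did, so its place here adds no separate evidence. Among members that did not pass, the gene most like Itgam was Cd33 (0.9930), a myeloid receptor gene, and the gene most like Itga4 was Osbp (0.9798).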

How the data were processed

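Total RNA of 3 mD1R and 3 PBS samples was labelled with biotin and hybridised to Affymetrix 3 prime arrays, per the labels. The authors deposited 1 log2 signal per probe set and array, and MAS5 is named, with no version, per the submitters' processing notes. Without detection calls, dim signals and background are not separated here, and the number of arrays limits the precision (median SE 0.27 over genes).

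These deposited log2 values were not rescaled. A limma 3.58.1 model (R 4.3.3, lmFit and eBayes with a variance trend, two-sided) gave the change mD1R minus PBS for the 27022 probe sets whose mean reached the 40th percentile, 5.27. Benjamini-Hochberg adjustment ran over all of these, with a threshold of 0.05. A gene stands for its brightest kept probe set with 1 symbol. All kept probe sets of the members were described, and from each further list up to 5 genes that passed, taken by smallest p. Members and lists were chosen with earlier results of these data known. Marker sums add linear signals of measured markers. Alternatives changed the scaling, filter, variance model, array weights, probe set choice, replicate or spike-in block and the arrays included.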

Additional observations from a re-analysis of the deposited data

How the results depend on the processing

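Of 27022 probe sets, 3413 passed. The count was 6508 with array weights, 2213 with no variance trend, and between 0 and 5565 with any one array left out. The 0 came from limma without PBS replicate 3, and 5853 probe sets were then at unadjusted p under 0.05. Of the 9 members, 3 passed, 2 with no variance trend (Cxcr4 was lost), and between 0 and 4 with an array left out, 0 without PBS replicate 2, PBS replicate 3 or mD1R replicate 2 (each with 3 at unadjusted p under 0.05) and 4 without mD1R replicate 1. Of the 112 genes in the further lists, 32 passed, 20 with no variance trend and between 0 and 44 with an array left out. No called member probe set changed direction in any setting.

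Some members that did not pass changed sign. The Itga4 probe sets, in order of brightness, ran from -0.09 to 0.46, -0.35 to 0.04 and -0.27 to 0.21 with an array left out, and the last was 0.08 with array weights and 0.02 with quantile normalization. Itgb2 ran from -0.07 to 0.33. Selplg ran from -0.44 to 0.18 and was 0.06 when the fit had a spike-in batch block. The Cd44 probe sets ran from -0.06 to 0.15, -0.13 to 0.02 and -0.22 to 0.08. The first was -0.00 with array weights, and the others were 0.03 and 0.05 under that spike-in block. The cause of these changes was not tested.

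The deviations of same-numbered arrays correlated at 0.3128, 0.0283 and 0.1323, so the numbers were not taken to pair the samples. With the replicate number as a block, 4619 probe sets, 3 members and 46 list genes passed. Not every array correlated best with its own number. The share of calls that were higher was 48.5%, and 61.0% without PBS replicate 2. With 3 arrays per group an effect near the members' standard errors is not detectable.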
